A study of Homo sapiens with 6 samples.

Results

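The genes described here are 50 genes for nucleolar ribosome biogenesis factors and RNA polymerase I, chosen by name from the 23152 genes of the deposited count table. Their messenger RNA was measured by RNA-seq in T24 cells, an established human bladder cancer line. The vector group, 3 samples treated with the vector, served as the control for the oeRNF112 group, 3 samples in which RNF112 was overexpressed. RNF112 encodes a RING finger E3 ubiquitin ligase. The deposited treatment text names transfection of siRNA with a Lipofectamine reagent for all 6 samples, which the group names do not mention, and this difference was not resolved. T24 is a single line, and no source states that the samples of a group came from separate cultures, so p-values measure the spread between these samples, which may be technical.

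Ribosome biogenesis begins in the nucleolus, where RNA polymerase I transcribes the ribosomal RNA genes into a long precursor. Small nucleolar ribonucleoproteins (snoRNPs) modify this precursor, the small subunit processome and its successors release the 40S subunit, and a separate set of factors matures the 60S subunit. Growing and tumor cells make many ribosomes, and c-Myc is well known as an activator of the genes for these factors.

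The counts summed to between 40029547 and 41259569 per sample, and 14467 genes passed the filter on low counts. RNF112, the gene that checks the labels, had 27, 19 and 24 counts in vector and 29753, 36963 and 31712 counts in oeRNF112. Levels are given as CPM, counts scaled to a common library size. Scaled by library total, 7 epithelial and T24 markers summed to 9246 to 10230 CPM in vector and 8211 to 9148 CPM in oeRNF112. By edgeR 2 of the 7 were lower in oeRNF112, beside 8.14% of all genes tested. Leukocyte markers summed to between 2.75 and 5.35 CPM over the 6 samples, and fibroblast and endothelial markers to between 9.43 and 13.5 CPM. In bulk RNA, fewer cells of a type and less RNA per cell cannot be told apart.

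All 50 members passed the filter, with between 76 and 65673 counts per sample. Expressed per gene length, as RPKM, which divides by library total and by length, their median level over the 6 samples was 19.0 RPKM, beside 5.37 RPKM for all genes tested. NPM1, which encodes nucleophosmin, an abundant nucleolar chaperone of ribosomal proteins and histones, had the highest level, 692 ± 43.6 RPKM (SD, n = 3) in vector. NCL, which encodes nucleolin, an RNA-binding protein of early pre-rRNA processing, followed at 211 ± 5.32 RPKM (SD, n = 3). FBL, the methyltransferase fibrillarin, was at 149 ± 21.2 RPKM (SD, n = 3) in vector. The large factors of the pathway were much less abundant per length, with POLR1A at 5.49 ± 0.844 RPKM (SD, n = 3) and UTP20 at 6.26 ± 1.26 RPKM (SD, n = 3). PPAN, a 60S maturation factor, was lowest at 0.849 ± 0.138 RPKM (SD, n = 3). Overlap of members with other genes on the same strand was examined only for snoRNA genes. A low level such as that of PPAN is therefore uncertain where reads could be shared with such a gene. NPM1 has 45 named pseudogenes in GENCODE v29, so its level and its changes are uncertain where reads could be assigned to copies.

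**Figure D1:**
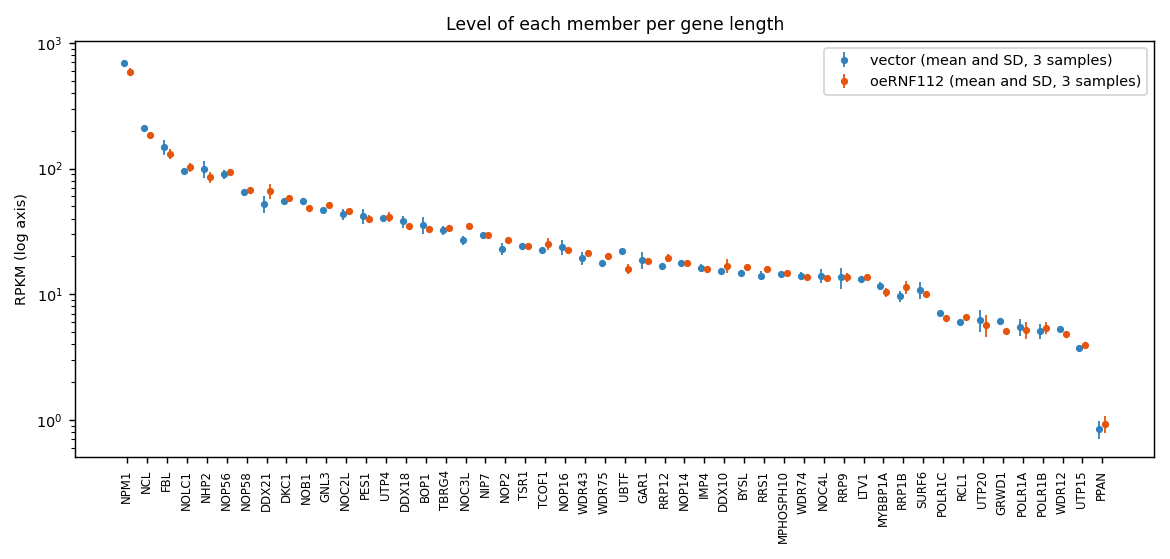
Level of each member per gene length, as mean RPKM on a log axis with error bars of 1 SD, for 3 vector samples (blue) and 3 oeRNF112 samples (orange). Members run from NPM1 at a mean of 639 RPKM over the 6 samples to PPAN at 0.886 RPKM.

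Many of these genes carry the E-box CACGTG close to their transcription start. This palindrome, which reads the same on both strands, is the core sequence bound by c-Myc with its partner MAX and by other basic helix-loop-helix factors. RefSeq start windows of 300 bases (250 before and 50 after the start, GRCh38.p14) were found for 41 members, and 18 of them (43.9%) held CACGTG. It was in 12.2% of the 11415 tested genes with such a window and in 8.77% of all 27305 genes with one. Of the 19 copies in the members, 13 (68.4%) began after the transcription start, against 11.1% of the 2821 copies in all windows. A match describes the letters of the window and does not show binding. Sequence outside the windows was not searched, so a gene without a match may hold the motif elsewhere. The following stretches, with CACGTG in capitals, are shown because they place the motif near the start of genes from several steps of the pathway. Each is written 5′ to 3′ on the strand of its gene.
FBL, chr19:39846356-39846379, minus strand: cttttcCACGTGcgaaagccccgg
NOC3L, chr10:94362903-94362926, minus strand: cttcggCACGTGtgtcattccccg
PES1, chr22:30591880-30591903, minus strand: gcagggCACGTGcgggaggaagtg
NOP14, chr4:2963374-2963397, minus strand: gcccggCACGTGtcttagggtagc
WDR43, chr2:28894664-28894687, plus strand: gacgaaCACGTGgctgcagcgggg
MYBBP1A, chr17:4555340-4555363, minus strand: ggagcaCACGTGtttcgtgtttcg
UTP20, chr12:101280055-101280104, plus strand: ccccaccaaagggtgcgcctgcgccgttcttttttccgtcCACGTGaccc
UTP4, chr16:69132593-69132648, plus strand: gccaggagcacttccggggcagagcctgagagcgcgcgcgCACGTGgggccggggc
DDX21, chr10:68956576-68956646, plus strand: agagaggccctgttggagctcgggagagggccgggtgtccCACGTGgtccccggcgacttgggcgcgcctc
Counted from the first transcribed base as 1, with no position 0, the motif began at base 7 in FBL, 20 in NOC3L, 14 in PES1, 16 in NOP14, 4 in WDR43 and 28 in MYBBP1A. It began at -10 in UTP20, at -16 in UTP4 and at -31 in DDX21. UBTF, GRWD1 and NCL, the members lower in oeRNF112 by the test described next, held no CACGTG in their windows. The 100 bases before the start of GRWD1, of NCL and of one of the 2 listed starts of UBTF are also given. They leave out the bases after the start, where 13 of the 19 copies in the members began, so they are not a like comparison.
UBTF, chr17:44219676-44219775, minus strand: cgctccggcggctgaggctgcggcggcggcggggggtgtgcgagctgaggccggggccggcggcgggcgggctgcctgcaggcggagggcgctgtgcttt
GRWD1, chr19:48445883-48445982, plus strand: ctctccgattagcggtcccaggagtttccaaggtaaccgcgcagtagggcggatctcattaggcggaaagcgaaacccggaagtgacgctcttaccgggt
NCL, chr2:231464485-231464584, minus strand: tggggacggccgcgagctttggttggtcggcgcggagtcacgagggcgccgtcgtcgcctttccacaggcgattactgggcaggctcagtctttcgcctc
The 18 members with CACGTG had a median log2 fold change of -0.08 between oeRNF112 and vector, and the 23 with a window and no match had a median of -0.13. By edgeR at an adjusted p under 0.05, 0 of the 18 and 3 of the 23 were called, beside 18.1% of all genes tested. At an unadjusted p under 0.05, 1 of the 18 was lower and 1 higher, and 7 of the 23 were lower, beside 16.0% of all genes lower and 17.1% higher. DESeq2 called 1 of the 18 higher and 4 of the 23 lower, beside 9.53% lower and 10.7% higher of all genes to which it gave an adjusted p.

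With RNF112 overexpressed, 3 of the 50 members were lower, UBTF, GRWD1 and NCL, and 0 were higher (edgeR quasi-likelihood test, adjusted p under 0.05 over all genes tested). The 3 are 6% of the members, while 8.14% of all genes tested were lower, 9.97% were higher and 18.1% were called in either direction. At an unadjusted p under 0.05, 9 members (18%) were lower and 1 (2%) was higher, against 16.0% and 17.1% of all genes, so the lower share was near that of all genes. DESeq2 called 4 members lower and 1 higher, 8% and 2%, against 9.53% and 10.7% of all genes with an adjusted p. The count of 3 lower members became 7 without vector replicate 2, 2 without oeRNF112 replicate 2 and 1, UBTF, when any other sample was left out. The fitted fold change was below 0 for 34 members and above 0 for 16. Its median was -0.09 on the log2 scale, or 94.3% of vector, with quartiles of -0.21 and 0.03, beside a median of 0.00267 for all genes tested. Scaled by library totals in place of TMM, the median of the members was 0.00866 and that of all genes 0.0962. Of the 47 members that did not pass the test, 46 had a 95% interval that lay within a 1.5-fold change in either direction. NHP2 was the exception, at -0.31 with an interval of -0.61 to -0.01.

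By sample, 12 members (24%) had all 3 oeRNF112 values below all 3 vector values, against 17.9% of all genes tested. They were UBTF, POLR1C, NOB1, NOP14, MPHOSPH10, GRWD1, WDR12, NIP7, DDX18, NCL, NPM1 and MYBBP1A. In the opposite direction, 1 member (2%) was higher in every oeRNF112 sample, NOC3L, against 18.9% of all genes tested.

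The spread among samples followed gene length. Among all genes tested, the 1447 shortest had a median difference from the vector mean of -0.19 on the log2 scale in vector replicate 2, 0.15 in vector replicate 3 and -0.29 in oeRNF112 replicate 3. The 1447 longest had 0.21, -0.17 and 0.28 in the same 3 samples. In oeRNF112 replicate 1 the shortest had -0.15 and the longest 0.10. In oeRNF112 replicate 2 they had 0.01 and -0.03, and in vector replicate 1 they had 0.04 and -0.02. The members spanned 908 to 12480 bases with a median of 2890 bases, shorter than the 3982 bases of all genes tested. Vector replicate 2 was the lowest vector sample for 28 of the 50 members (38.4% of all genes) and vector replicate 3 the highest for 28 (40.8% of all genes). The 25 shorter members had sample medians of -0.11 in vector replicate 2 and 0.12 in vector replicate 3, and the 25 longer members had 0.01 and -0.02.

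**Figure D2:**
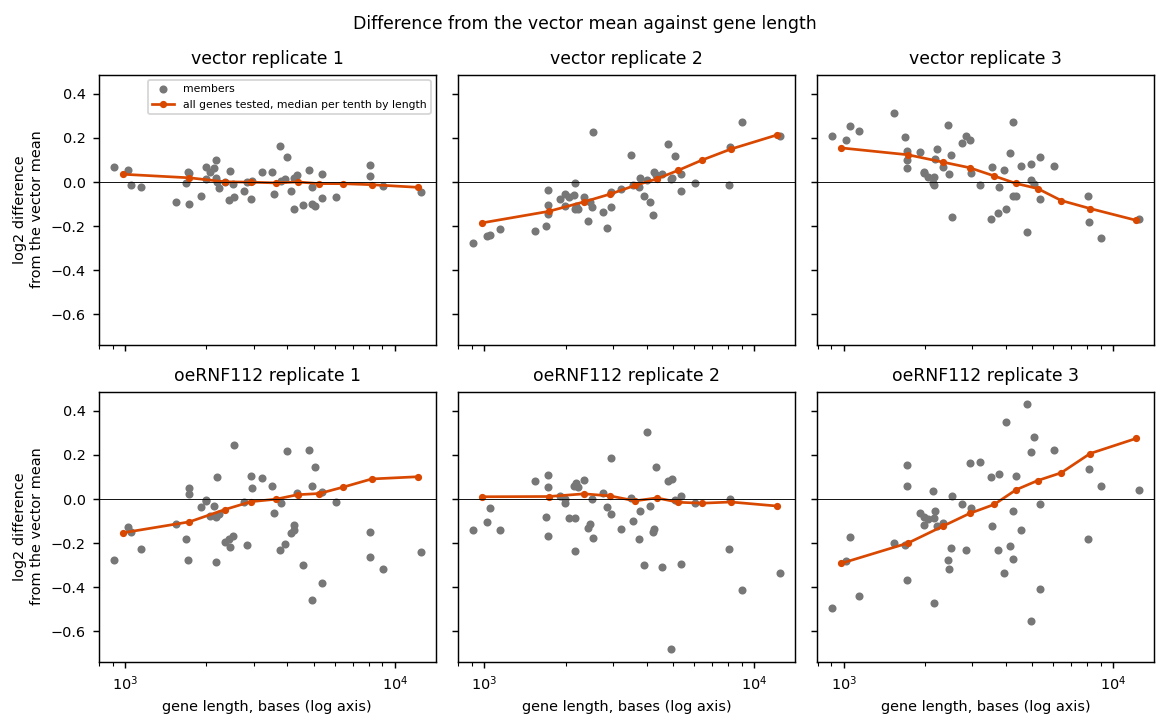
Log2 difference of each member from its vector mean (grey points) against gene length in bases (log axis), with 1 panel per sample, and the median of all genes tested in 10 bins by length (orange line). The line falls with length in vector replicate 3 and rises in vector replicate 2 and oeRNF112 replicate 3, where it ends at -0.17, 0.21 and 0.28. It also rises in oeRNF112 replicate 1, where it ends at 0.10.

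A second fit, chosen after these values were seen, therefore removed a smooth trend with length from each sample. The median standard error of the members then fell from 0.0963 to 0.0774, and it was smaller for 49 of the 50. Over all genes tested the median fell from 0.125 to 0.0992. Removing a trend fitted to the same samples lowers their spread by design. The trend was not balanced between the groups, so its removal can also take out part of a group difference that follows length. The test treated this trend as known, so its standard errors may be too small and its calls too many. In that fit 9 members (18%) were lower, UBTF, POLR1A, UTP20, NOB1, WDR12, GRWD1, NCL, NPM1 and MYBBP1A, and 1 (2%) was higher, NOC3L, while 13.9% of all genes tested were lower and 14.7% higher. The median of the members was -0.01 on the log2 scale, with 27 below 0. It was 0.02 for the 18 members with CACGTG and -0.08 for the 23 with a window and no match. UBTF, GRWD1 and NCL were called in both fits. All members but UBTF and GRWD1, 48 of the 50, had a 95% interval within a 1.5-fold change. Lower in every oeRNF112 sample were 16 members (32%), against 21.6% of all genes, and higher in every one were 4 (8%), RCL1, BYSL, NOP2 and NOC3L, against 21.8%.

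**Figure D3:**
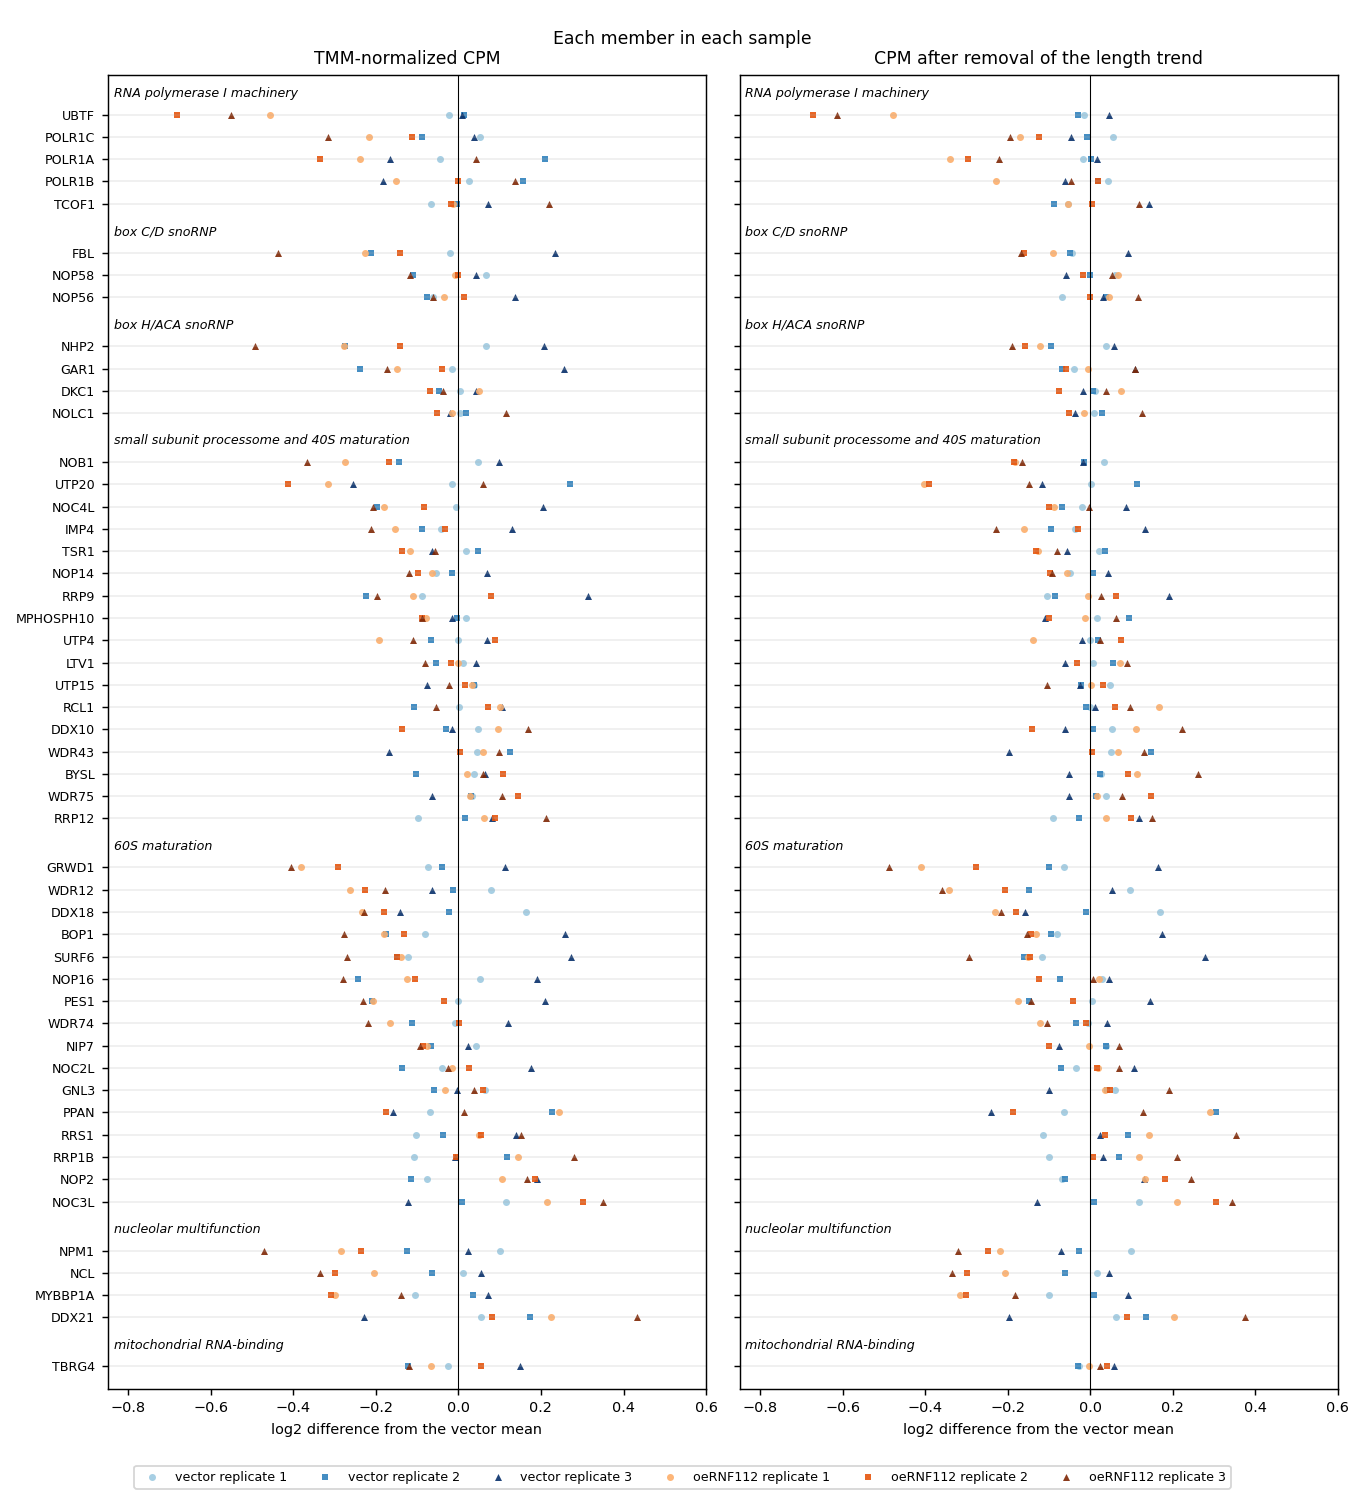
Log2 difference of each sample from the vector mean for each member, grouped by role, from CPM with TMM normalization (left) and from CPM after the length trend was removed (right). Blue symbols are vector samples and orange symbols oeRNF112 samples, and UBTF is the member whose groups lie farthest apart in both panels.

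The counts of each class below stand beside 8.14% of all genes lower and 9.97% higher by edgeR. At an unadjusted p under 0.05 these shares were 16.0% and 17.1%, and with DESeq2 9.53% and 10.7%. The RNA polymerase I machinery was measured through 5 members, of which 1 was lower and 0 were higher, with a median log2 fold change of -0.18. UBTF encodes the upstream binding factor, an HMG-box protein that coats the active ribosomal RNA genes and helps recruit the promoter selectivity factor SL1. The gene lies at chr17:44205033-44221626 on the minus strand (GRCh38, GENCODE v29). It was at 111, 113 and 113 CPM in the vector samples and 82.0, 70.1 and 76.8 CPM in the oeRNF112 samples. The oeRNF112 samples lay well below the narrow range of the vector samples, with no overlap. The log2 fold change was -0.56 (SE 0.0872, edgeR adjusted p = 0.00269), or 67.8% of vector, and -0.59 (SE 0.0691, adjusted p = 0.000163) with the length trend removed. It is the only member that was called in all 16 alternative analyses tried. GENCODE places 2 genes on the opposite strand of UBTF, and the strand setting of the counting is not given in the sources used here.

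POLR1A encodes the largest subunit of RNA polymerase I and lies at chr2:86020216-86106155 on the minus strand. Its levels were 68.2, 81.3 and 62.6 CPM in the vector samples and 59.6, 55.7 and 72.3 CPM in the oeRNF112 samples, and the groups overlapped (-0.18, SE 0.128, edgeR adjusted p = 0.364). After removal of the length trend the levels were 72.0, 72.9 and 73.7 CPM in the vector samples and 57.6, 59.3 and 62.5 CPM in the oeRNF112 samples. The groups then no longer overlapped, and the log2 fold change was -0.29 (SE 0.0646, adjusted p = 0.00753). POLR1B, the second largest subunit, was at 43.4, 47.5 and 37.6 CPM in the vector samples and 38.4, 42.6 and 46.8 CPM in the oeRNF112 samples, a log2 fold change of -0.01 with an interval of -0.26 to 0.25. POLR1C, a subunit shared with RNA polymerase III whose gene overlaps 5 genes on the opposite strand, was at 18.6, 16.8 and 18.4 CPM in the vector samples and 15.4, 16.6 and 14.4 CPM in the oeRNF112 samples. Its groups lay close to each other without overlap, and its fold change of -0.21 did not pass the test (edgeR adjusted p = 0.180). TCOF1 encodes treacle, a nucleolar protein that acts with UBTF in ribosomal RNA transcription. Its value was 0.07 (edgeR adjusted p = 0.655), with levels of 134, 140 and 147 CPM in the vector samples and 139, 139 and 164 CPM in the oeRNF112 samples.

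The core proteins of box C/D snoRNPs, which guide 2′-O-methylation of ribosomal RNA, had a median of -0.04 over 3 members. None passed the edgeR test in either direction, and 0 of the 3 had an unadjusted p under 0.05 or passed with DESeq2. FBL, the methyltransferase, was at 172, 151 and 205 CPM in the vector samples and 149, 158 and 129 CPM in the oeRNF112 samples. Vector replicate 3 was the highest sample and oeRNF112 replicate 3 the lowest, and vector replicate 2 lay among the oeRNF112 samples (-0.27, SE 0.124, edgeR adjusted p = 0.153). NOP56, a scaffold of the particle with 3 named pseudogenes, was at 170.3, 169 and 195 CPM in the vector samples and 173, 179 and 170.2 CPM in the oeRNF112 samples, with overlapping groups and a log2 fold change of -0.03, or 0.05 without the length trend. NOP58, its partner, had -0.04 with an interval of -0.24 to 0.15.

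The box H/ACA class, whose particles guide pseudouridylation, had a median of -0.08 over 4 members, and none passed the edgeR test. NHP2 was at an unadjusted p under 0.05, and DESeq2 called 0 of the 4. NHP2, a small core protein, was at 97.0, 76.5 and 107 CPM in the vector samples and 76.4, 84.0 and 65.8 CPM in the oeRNF112 samples. Its levels in vector replicate 2 and oeRNF112 replicate 1 were nearly equal. The log2 fold change of -0.31 (SE 0.134, edgeR adjusted p = 0.138) became -0.16 (SE 0.0666) without the length trend. DKC1, the pseudouridine synthase dyskerin, had -0.02 with an interval of -0.20 to 0.16. NOLC1, a chaperone of snoRNPs in the nucleolus and Cajal bodies, was at 371, 375 and 365 CPM in the vector samples and 366, 357 and 401 CPM in the oeRNF112 samples, and its log2 fold change was 0.02 (edgeR adjusted p = 0.912).

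Of the 17 members of the small subunit processome and 40S maturation, 0 passed the edgeR test, 1 had an unadjusted p under 0.05, and DESeq2 called 0. Their median was -0.07, with 10 below 0. NOB1, the nuclease that makes the final cut at the 3′ end of 18S ribosomal RNA, was the member of the class with the highest level per length, 54.7 ± 3.80 RPKM (SD, n = 3) in vector. In CPM it was at 100, 87.7 and 104 CPM in the vector samples and 80.1, 86.2 and 75.1 CPM in the oeRNF112 samples. The lowest vector sample lay just above the highest oeRNF112 sample. Its log2 fold change was -0.27 (SE 0.0965, edgeR adjusted p = 0.0788) and -0.18 (SE 0.0596, adjusted p = 0.0436) without the length trend. UTP20, a very large scaffold protein, was at 57.0, 69.6 and 48.3 CPM in the vector samples and 46.3, 43.3 and 60.1 CPM in the oeRNF112 samples, with wide overlap (-0.22, SE 0.155, edgeR adjusted p = 0.343). Without the length trend it was at 59.5, 64.3 and 54.8 CPM in the vector samples and 44.9, 45.3 and 53.6 CPM in the oeRNF112 samples. The groups were then apart by a small margin, and the log2 fold change was -0.31 (SE 0.0896, adjusted p = 0.0233). RRP12, which takes part in maturation and export of pre-40S particles, had the highest value of the class at 0.12 (edgeR adjusted p = 0.372), with levels of 79.9, 86.5 and 90.5 CPM in the vector samples and 89.2, 91.0 and 99.1 CPM in the oeRNF112 samples. UTP4, a component of the small subunit processome, had -0.07 with an interval of -0.28 to 0.15.

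Among the 16 members of 60S maturation, 1 was lower, GRWD1, and 0 were higher by edgeR, with a median of -0.11. At an unadjusted p under 0.05, 3 were lower and 1 was higher, and DESeq2 called 1 in each direction. GRWD1 encodes a WD-repeat protein that binds histones and a ribosomal protein of the large subunit, and lies at chr19:48445773-48457022 on the plus strand. It was at 32.0, 32.7 and 36.4 CPM in the vector samples and 25.8, 27.5 and 25.4 CPM in the oeRNF112 samples, and the groups did not overlap. The log2 fold change was -0.36 (SE 0.0945, edgeR adjusted p = 0.0270), or 77.8% of vector. With the length trend removed it was -0.39 (SE 0.0937, adjusted p = 0.00960). The call was lost without vector replicate 1, vector replicate 3, oeRNF112 replicate 1 or oeRNF112 replicate 3. Of the 10 other alternatives it held in 6 and was lost with library totals, both limma fits and the replicate block.

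NOC3L, a nucleolar complex protein of pre-60S particles, was the member with the highest fold change. The gene lies at chr10:94333226-94362959 on the minus strand. It was at 119.9, 112 and 102 CPM in the vector samples and 129, 137 and 141 CPM in the oeRNF112 samples, so that every oeRNF112 sample was above every vector sample. The log2 fold change was 0.29 (SE 0.0905, edgeR adjusted p = 0.0531), just short of the threshold. It passed in 7 of 10 alternatives, among them DESeq2 and the fit with the length trend removed (0.28, SE 0.0747, adjusted p = 0.0157), and in 0 of the 6 analyses with 1 sample left out (edgeR adjusted p of 0.0651 to 0.166). WDR12 forms the PeBoW complex with PES1 and BOP1 and was at 46.8, 44.0 and 42.4 CPM in the vector samples and 37.0, 37.9 and 39.2 CPM in the oeRNF112 samples. Its groups were apart, with a log2 fold change of -0.22 (edgeR adjusted p = 0.103) and, without the length trend, -0.31 (adjusted p = 0.0198). BOP1 and PES1 had -0.21 and -0.17 (edgeR adjusted p = 0.246 and 0.345), and in both the groups overlapped. DDX18, an RNA helicase, was at 164, 144 and 133 CPM in the vector samples and 125, 129 and 125 CPM in the oeRNF112 samples, and its value of -0.22 did not pass the test (edgeR adjusted p = 0.136). NOP2, a methyltransferase of 28S ribosomal RNA, had 0.15 with levels of 65.7, 64.0 and 79.1 CPM in the vector samples and 74.6, 78.8 and 77.7 CPM in the oeRNF112 samples. GNL3, or nucleostemin, a GTP-binding nucleolar protein and the most abundant member of the class per length, had 0.02 with an interval of -0.16 to 0.20.

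**Figure D4:**
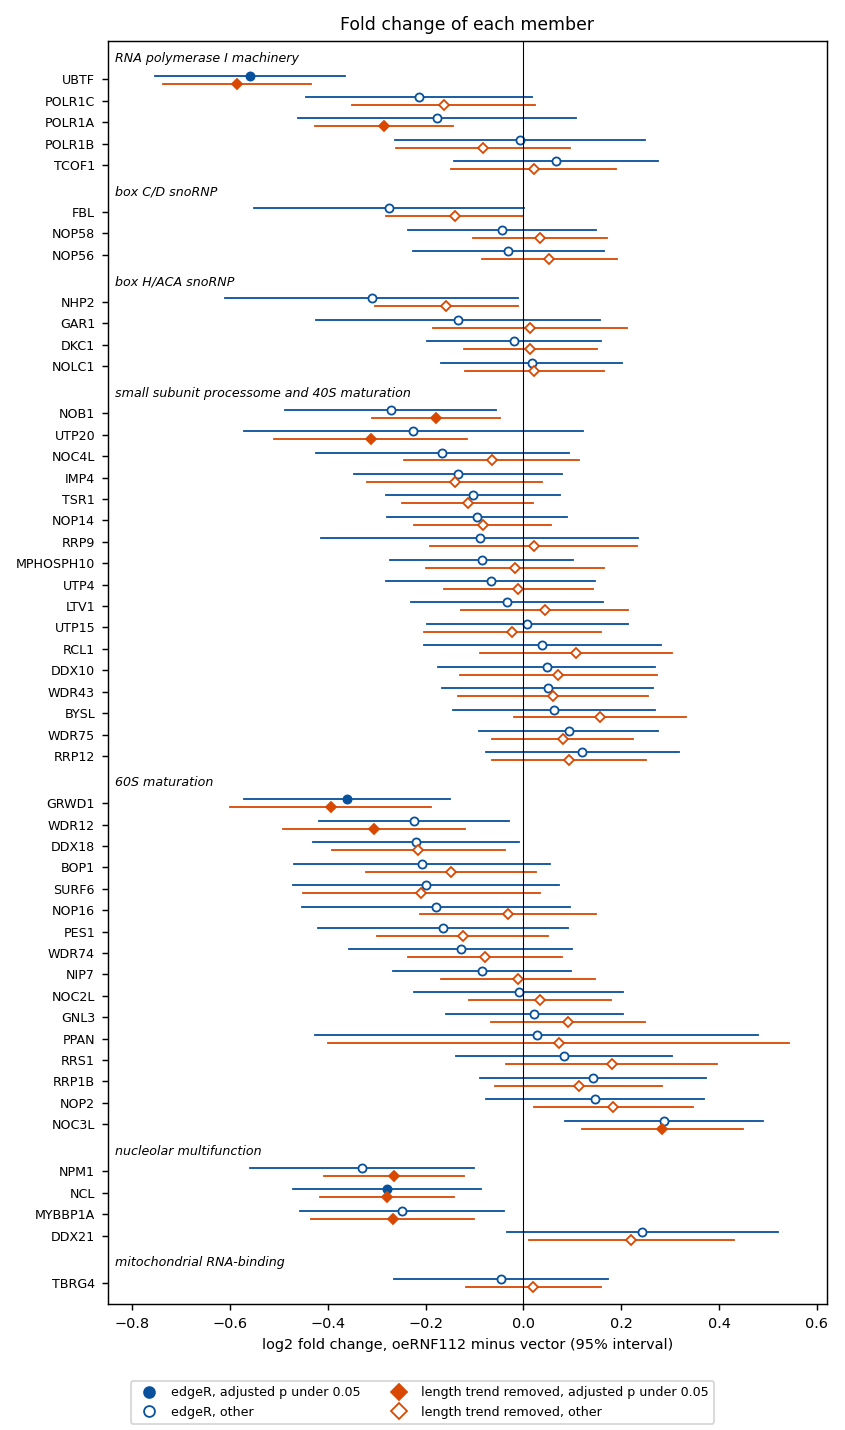
Log2 fold change of each member, oeRNF112 minus vector, with its 95% interval, grouped by role, from edgeR (blue circles) and from edgeR with the length trend removed (orange diamonds). Filled symbols have an adjusted p under 0.05, 3 in the first fit and 10 in the second, and most intervals cross 0.

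The last class holds 4 abundant or multifunctional nucleolar proteins and had a median of -0.26, with 1 member lower and 0 higher by edgeR. At an unadjusted p under 0.05, 3 of the 4 were lower and 0 higher, beside 16.0% and 17.1% of all genes tested. DESeq2 called 2 lower and 0 higher. NCL, which has 2 named pseudogenes, lies at chr2:231453531-231483641 on the minus strand and was at 862, 817 and 887 CPM in the vector samples and 742, 694 and 678 CPM in the oeRNF112 samples. The groups did not overlap, and the log2 fold change was -0.28 (SE 0.0859, edgeR adjusted p = 0.0488), or 82.4% of vector. Without the length trend it was -0.28 (SE 0.0624, adjusted p = 0.00705). The main call sits at the threshold: of the 6 analyses with 1 sample left out, it held in 1, the one without vector replicate 2. Of the 10 other alternatives it held in 4. It was lost with library totals, both limma fits, the block and either other filter on low counts. NPM1, at chr5:171387116-171411137 on the plus strand, was at 1660.4, 1419.9 and 1573 CPM in the vector samples and 1270.5, 1315 and 1116 CPM in the oeRNF112 samples. All oeRNF112 samples were below all vector samples, at -0.33 (SE 0.103, edgeR adjusted p = 0.0505) and, without the length trend, -0.26 (SE 0.0651, adjusted p = 0.0115).

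MYBBP1A, a nucleolar protein that binds several transcription factors, was at 50.8, 56.1 and 57.4 CPM in the vector samples and 44.5, 44.2 and 49.7 CPM in the oeRNF112 samples, without overlap. Its log2 fold change was -0.25 (SE 0.0937, edgeR adjusted p = 0.0942) and -0.27 (SE 0.0757, adjusted p = 0.0221) without the length trend. DDX21, an RNA helicase of the nucleolus and of RNA polymerase II promoters, differed from its class in sign, with levels of 269, 292 and 221 CPM in the vector samples and 302, 274 and 349 CPM in the oeRNF112 samples. Its lowest sample was vector replicate 3, vector replicate 2 lay above oeRNF112 replicate 2, and the value of 0.24 did not pass the test (edgeR adjusted p = 0.202). TBRG4, whose protein is a mitochondrial RNA-binding protein, is a member by name only and had -0.05 (edgeR adjusted p = 0.773).

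Introns of 9 members, among them NCL and TBRG4, hold snoRNA genes, which are processed from the excised introns and guide the modification of RNA. The following 3 lie within NCL in GENCODE v29 and are shown because NCL is the only called member that hosts any. The boxes TGATGA and CTGA of the C/D type and the ACA near the 3′ end of the H/ACA type are in capitals. They were searched by letters on the strand of the gene, in GRCh38.
SNORD20, chr2:231456444-231456523, minus strand: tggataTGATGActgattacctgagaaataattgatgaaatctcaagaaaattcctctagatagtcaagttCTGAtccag
SNORD82, chr2:231460371-231460440, minus strand: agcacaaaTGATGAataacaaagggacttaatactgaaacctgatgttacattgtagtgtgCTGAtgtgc
SNORA75, chr2:231455800-231455936, minus strand: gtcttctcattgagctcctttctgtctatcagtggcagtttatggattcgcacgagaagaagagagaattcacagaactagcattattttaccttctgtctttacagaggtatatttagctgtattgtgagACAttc
The count table used here holds no snoRNA and no ribosomal RNA row, and neither kind of RNA was analysed here. The 9 hosting members had a median log2 fold change of -0.03 and the other 41 had -0.09. By edgeR 1 and 2 were called lower, beside 8.14% of all genes tested.

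Beyond the 50 members, 117 further genes of the pathway were examined, from subunits of RNA polymerase I to the exosome, listed by their role. By edgeR 5 were lower and 2 higher, 4.27% and 1.71% of the list against 8.14% and 9.97% of all genes tested, with a median of -0.08. RRN3, the initiation factor that links RNA polymerase I to its promoter complex, was higher, with 63.2, 62.8 and 58.9 CPM in vector and 73.3, 77.0 and 77.5 CPM in oeRNF112 (0.30, SE 0.0822, edgeR adjusted p = 0.0318), and this call was lost in the analyses without each sample other than vector replicate 2 (adjusted p of 0.0670 to 0.110). TAF1D, a subunit of SL1 whose introns hold snoRNAs, was higher too, with 66.3, 60.8 and 60.4 CPM in vector and 84.9, 91.4 and 81.2 CPM in oeRNF112 (0.46, SE 0.0883, edgeR adjusted p = 0.00747). They were the only 2 of the 11 genes of RNA polymerase I machinery on this list that passed the edgeR test. FCF1, a nuclease component of the small subunit processome, was lower, with 58.8, 57.4 and 58.2 CPM in vector and 44.8, 41.8 and 41.0 CPM in oeRNF112 (-0.45, SE 0.0840, edgeR adjusted p = 0.00635). NOP53, a 60S factor, had -0.53 and DDX54, a helicase, -0.36 (edgeR adjusted p = 0.0127 and 0.0228). The call of NOP53 was lost without vector replicate 1 (adjusted p = 0.0583) or oeRNF112 replicate 1 (0.0541), and that of DDX54 without vector replicate 1 or 3 or oeRNF112 replicate 1 or 3 (edgeR adjusted p of 0.0528 to 0.0961). With the length trend removed 14 were lower and 7 higher, 11.97% and 5.98% of the list, against 13.9% and 14.7% of all genes tested. The list held 17 lower and 4 higher genes at an unadjusted p under 0.05, beside 16.0% and 17.1% of all genes tested. The DESeq2 counts were 8 and 2, beside 9.53% and 10.7% of all genes with an adjusted p.

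Genes for the ribosome itself and snoRNA host genes were counted the same way. Of all genes tested, 8.14% were lower and 9.97% higher by edgeR, and 16.0% and 17.1% at an unadjusted p under 0.05. The shares were 13.9% and 14.7% without the length trend, and 9.53% and 10.7% of genes with an adjusted p in DESeq2. Of 82 cytosolic ribosomal protein genes, 25 were lower and 0 higher by edgeR, with a median of -0.37, and at an unadjusted p under 0.05 the counts were 55 and 0 (DESeq2 called 41 and 0). These genes are short, with a median of 1129 bases, and without the length trend 46 were lower and 1 higher, with a median of -0.26. Of 77 tested mitochondrial ribosomal protein genes 12 were lower and 0 higher, with a median of -0.23 (unadjusted 29 and 0, DESeq2 20 and 0), and without the length trend 19 were lower and the median was -0.12. Of 16 genes that host snoRNAs and encode mostly no protein, 0 were lower (unadjusted 0, DESeq2 0) and 4 were higher, SNHG1, SNHG12, SNHG17 and TAF1D. SNHG1 was at 102, 109 and 125 CPM in vector and 167, 181 and 161 CPM in oeRNF112 (0.59, SE 0.0990, edgeR adjusted p = 0.00363). The median of the 16 was 0.28, and without the length trend 10 were higher, with a median of 0.43. By sample with TMM, the medians of these lists overlapped between groups. Cytosolic genes had -0.24 in vector replicate 2 and -0.13 in oeRNF112 replicate 2, and mitochondrial genes -0.17 and -0.07. The snoRNA hosts had 0.21 in vector replicate 3 and 0.10 in oeRNF112 replicate 3. In every oeRNF112 sample 23 of the 82 and 18 of the 77 were lower, beside 17.9% of all genes. Higher in every one were 4 of the 16, beside 18.9%. The difference between any of these lists and the members was not tested.

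**Figure D5:**
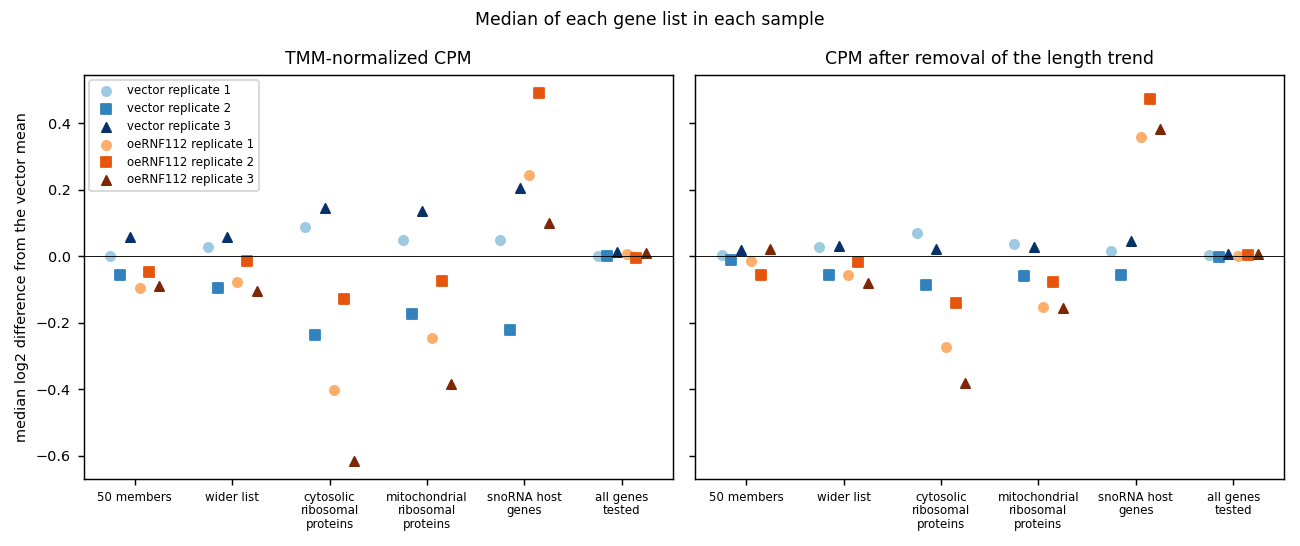
Median log2 difference from the vector mean of 6 gene lists in each sample, from CPM with TMM normalization (left) and after the length trend was removed (right). After removal the medians of the 50 members lie between -0.06 and 0.02 in all samples, those of cytosolic ribosomal protein genes between -0.38 and -0.14 in oeRNF112, and those of snoRNA hosts between 0.36 and 0.47 in oeRNF112.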

How the data were processed

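RNA-seq of T24 cells gave 3 vector and 3 oeRNF112 samples. The authors deposited unnormalized whole-number counts per gene and an RPKM table, whose values equalled count over total and length for 20637 of 20637 genes (tolerance 0.1%). Per the submitters' processing notes they used Trimmomatic 0.36, featureCounts of Subread 1.5.1 and GRCh38. The aligner, the annotation and the strand setting are not given in the sources used here.

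Counts were tested with edgeR 4.0.16 in R 4.3.3 (low-count filter, TMM, quasi-likelihood test, Benjamini-Hochberg over 14467 genes, threshold 0.05). CPM values are TMM-normalized, except the summed levels of cell type markers, which were scaled by library total. TMM factors were 0.957 to 0.988 in vector and 1.01 to 1.05 in oeRNF112. Alternatives were DESeq2 1.42.0, limma 3.58.1 on log2(RPKM + 1) and log2(RPKM + 0.1), other size factors and filters, a replicate block and each sample left out. A loess curve (span 0.3) of log2 CPM on the gene length implied by the deposited values, with or without GC content of the longest GENCODE v29 transcript, was used as an offset, an alternative chosen after seeing the data. Medians by sample used a pseudocount of 0.1 CPM. Scripts were tested on simulated data.

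The members and lists were chosen with earlier results of these data known. Genes named are called members, the lowest, highest and most abundant member of each role class, and the 5 wider genes with the smallest p. RNF112 was also named. POLR1A, POLR1B, POLR1C, NOP58, DKC1, UTP4, UTP20, WDR12, BOP1, PES1, DDX18, NOP2, MYBBP1A, TBRG4 and PPAN were named for role or level, some after their values were seen, as were the snoRNA hosts. Named pseudogenes (NPM1, DDX18, NCL, NHP2, NOP56, PES1) or genes on the opposite strand (UBTF, POLR1C, NHP2, NOB1, RRP12, UTP4, NOP14, WDR12, BOP1, PES1, GNL3, MYBBP1A) could share reads with the genes in brackets, so their values are uncertain. No 2 samples were copies of each other.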

Additional observations from a re-analysis of the deposited data

How the results depend on the processing

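Depth was near-even, so the limits here were 3 samples per group, a call that for NCL lay at the threshold, and the trends with gene length. Of 320 values for 20 named genes under 16 alternatives, 258 kept direction and side of the threshold, 37 fell short of it, 16 newly passed and 9 changed sign. The 258 include genes not called in the main fit that stayed uncalled. The 37 fell on 7 genes: GRWD1, NCL, FCF1, TAF1D, NOP53, DDX54 and RRN3. These are all the called genes named, other than UBTF and RNF112. The cause of these changes was not tested.

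Members lower (3 as reported) were 1 with library totals, 1 with the replicate block, 1 with limma at either pseudocount, 9 without the length trend, 10 without length and GC trends, and 1 to 7 with a sample left out. They were 7 without vector replicate 2, 2 without oeRNF112 replicate 2 and 1 without any other sample. Members higher (0) were 1 with DESeq2, 1 with library totals, 1 with at least 10 counts in every sample, 1 with limma at either pseudocount, 1 without the length trend and 2 without length and GC trends. Genes called (2620) were 876 with the block, 4137 without the length trend, 4515 without length and GC trends, and 1061 to 3387 with a sample left out. With library totals 659 genes were lower and 2020 higher, and the median of all genes rose by 0.0935.

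The members' median (-0.09) was 0.00866 with library totals, 0.0120 and 0.0130 with limma at a pseudocount of 1 and 0.1, -0.0143 without the length trend, 0.0132 without length and GC trends, and -0.0941 to -0.0485 with a sample left out. Members lower in every oeRNF112 sample (12) were 4 with library totals, 4 with limma at either pseudocount, and 11 to 22 with a sample left out. Of the wider list, 5 lower became 8 with DESeq2, 2 with library totals, 0 with the block, 14 without the length trend, 19 without length and GC trends, and 1 to 14 with a sample left out (14 without vector replicate 2, 6 without oeRNF112 replicate 2, 1 or 2 without any other). The 2 higher became 5 with library totals, 0 with the block, 7 and 6 with limma, 1 without the low-count filter, 7 without the length trend, 8 without length and GC trends, and 1 to 2 with a sample left out. The wider median (-0.08) was 0.0114 with library totals, 0.00976 and 0.0140 with limma, and -0.103 to -0.0435 with a sample left out.

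NOP56 (-0.03, or -0.0711 to 0.0420 with a sample left out) was 0.0632 with library totals, 0.0649 and 0.0656 with limma, 0.0529 without the length trend, 0.0909 without length and GC trends and 0.0420 without vector replicate 3. With a sample left out GNL3 was -0.00941 (without vector replicate 2) to 0.0672, TCOF1 -0.0164 (without oeRNF112 replicate 3) to 0.120 and NOLC1 -0.0344 (without oeRNF112 replicate 3) to 0.0625. Same-numbered samples of the groups had correlations of deviations of -0.116, -0.363 and -0.296. These values show no positive pairing by number, but deviations from means of 3 samples that follow gene length cannot exclude one. The labels state no pairing. Among the members, GRWD1 and NCL lost their call under the block (edgeR adjusted p = 0.167 and 0.255), which is a limit on those calls.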
